A study of Mus musculus with 6 samples.

Results

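Hepatokines are proteins that the liver releases into the blood and that act on fat, muscle, brain or the liver itself, where several of them alter sensitivity to insulin. The 9 genes described here were chosen by name as liver-secreted factors of that kind: Ahsg, Fetub, Angptl4, Angptl6, Fgf21, Gdf15, Inhbe, Enho and Sepp1 (now named Selenop). They are 9 of the 20416 genes that the arrays measured, and all 9 were bright enough to enter the test. Each gene's level is the mean log2 intensity of all its probe sets that are annotated to that gene alone, from 3 probe sets for Gdf15 to 10 for Fetub and 53 in all. Another 2 probe sets, annotated to Angptl6 together with a further gene, were left out.

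The samples were primary hepatocytes of adult C57BL/6 mice, isolated by perfusing the liver with collagenase. The miR-143DOX group was 3 mice with a doxycycline-inducible transgene for the microRNA miR-143, and the control group was 3 wildtype littermates. Both groups drank 4 mg/ml doxycycline with 10% sucrose for 8 days, so the controls had the drug and the sugar without the transgene. The promoter and cell types that drive the transgene are not given in the sources used here, and the level of miR-143 was not analysed here. The question is which transcripts of hepatocytes differ once miR-143 is induced, in a study of how this microRNA bears on insulin action in the liver.

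Many hepatokines report the nutritional or stress state of the hepatocyte. Fgf21 and Angptl4 are induced in fasting through PPARalpha, the nuclear receptor for fatty acids. Fgf21, Gdf15 and Inhbe are also outputs of ATF4, the transcription factor of the amino acid and integrated stress responses. The fetuins Ahsg and Fetub are abundant plasma proteins that can inhibit the insulin receptor, and selenoprotein P, the product of Sepp1, carries selenium from the liver to other tissues.

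No hepatokine gene was called different between the groups. None of the 9 passed a 5% false discovery rate (FDR) over the 15312 genes tested by limma, where each had an adjusted p = 1, and 0% of all genes passed. With miR-143DOX minus control as the difference, 2 of the 9 lay above 0 and 7 below, with a median of -0.05 on the log2 scale. Over all tested genes the median was 0.01 and 52.4% lay above 0. Gdf15 was the member with the most positive difference, at 0.42, and Fetub the one with the most negative, at -0.50. These were the 2 members at an unadjusted p under 0.05, which 3.06% of all tested genes reached (1.38% higher, as Gdf15, and 1.68% lower, as Fetub). Without 1 probe set that stood apart in control replicate 1, Fetub was at -0.19, with an unadjusted p of 0.177 in limma. In no member did all 3 miR-143DOX arrays lie on one side of all 3 control arrays, a pattern that 7.13% of tested genes showed (3.4% higher and 3.73% lower).

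**Figure D1:**
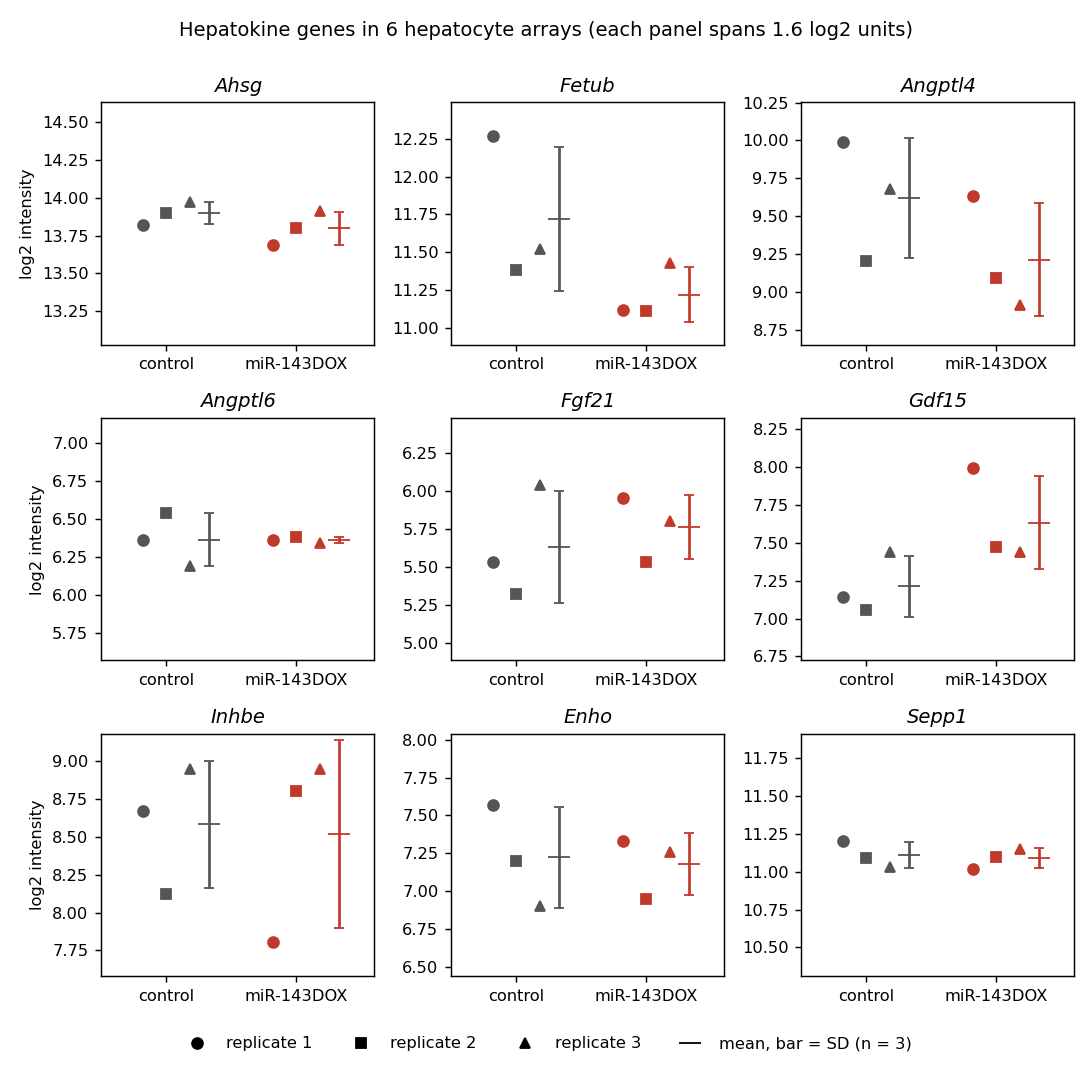
Log2 intensity of the 9 hepatokine genes in each of the 6 arrays (control grey, miR-143DOX red, 1 symbol per replicate number), with the mean and SD of 3 arrays beside the points and the same axis span in every panel. The groups overlap in each panel, Sepp1 and Ahsg vary least between animals, and control replicate 1 stands alone in Fetub.

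The samples read as hepatocytes: 16 markers such as albumin had a mean log2 level of 13.06 to 13.21 in control arrays and of 13.15 to 13.17 in miR-143DOX arrays. Across probe sets the arrays correlated at Pearson r of 0.936 to 0.954. One library stood apart in a way that touches a member. In control replicate 1, 262 of 234873 probe sets lay over 3 log2 units above all the other arrays, against 0 to 6 in each of the other 5. Values that far below all other arrays numbered 184 in control replicate 2, 44 in control replicate 1 and 7 to 20 in the other 4. One hepatokine gene, Fetub, has a probe set among these, so its values are given below with and without it. In RNA from whole samples, fewer cells of a type and less RNA per cell cannot be told apart.

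**Figure D2:**
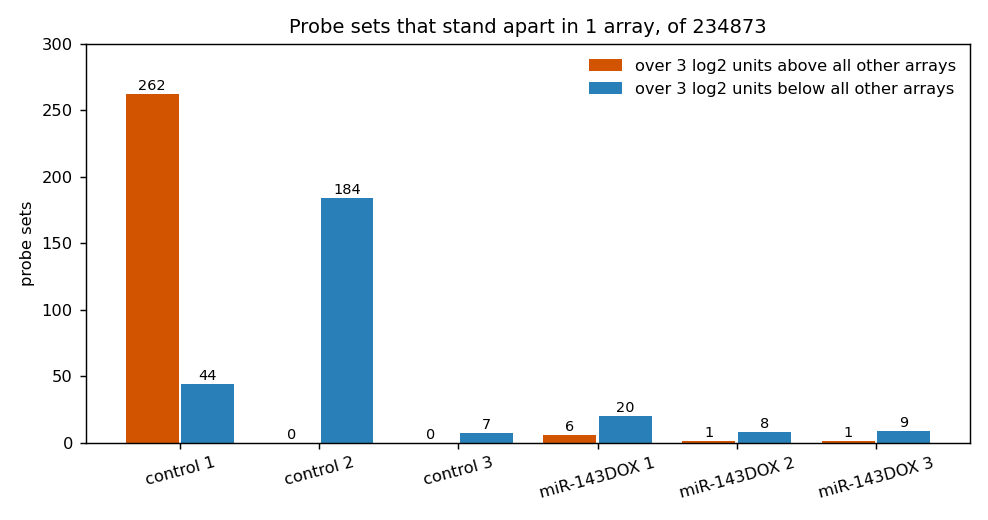
Number of probe sets (vertical axis, from 0) that lie over 3 log2 units above, or below, every other array, by array. Control replicate 1 holds 262 high ones and control replicate 2 holds 184 low ones, and no other array holds more than 20 of either kind.

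The fetuins are members of the cystatin superfamily, and in the mouse annotation their genes lie side by side, followed by the plasma protein genes Hrg and Kng2. Ahsg, which encodes fetuin-A, an inhibitor of mineral deposition and of the insulin receptor, measured 13.82, 13.90 and 13.97 (log2) in control replicates 1 to 3 and 13.69, 13.80 and 13.91 in miR-143DOX replicates 1 to 3. The groups overlapped, and the difference was -0.10 with a 95% interval of -0.38 to 0.19. All 8 of its probe sets had a difference below 0, from -0.26 to -0.01. Probe sets of a gene share the same arrays, so such counts describe the gene and are no replicates.

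Fetub, which encodes fetuin-B, a protease inhibitor of the plasma, measured 12.27, 11.38 and 11.52 in control replicates 1 to 3 and 11.12, 11.11 and 11.43 in miR-143DOX replicates 1 to 3. Control replicate 1 was the high array, and the other 5 arrays lay within 0.41 of each other. The difference was -0.50 (95% interval -0.97 to -0.04), a level 1.42-fold lower in miR-143DOX, with an adjusted p = 1 in limma and an unadjusted p of 0.035 from the same fit. A single probe set, 10434699, carried most of it. That probe set read 14.51 in control replicate 1, where it exceeded each of the other 9 probe sets of the gene, and 6.26, 6.19, 5.85, 4.70 and 6.47 in the other arrays.

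Without that probe set Fetub measured 12.02, 11.95 and 12.11 in control and 11.70, 11.82 and 11.98 in miR-143DOX arrays (SD 0.08 and 0.14, n = 3 each). On the 9 probe sets left, the difference was -0.19 (95% interval -0.48 to 0.10), or 1.14-fold lower, with an unadjusted p of 0.177 in limma, and control replicate 1 no longer stood out. Leaving out control replicate 1 as a whole gave -0.23. The brightest probe set of the gene gave -0.12.

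**Figure D3:**
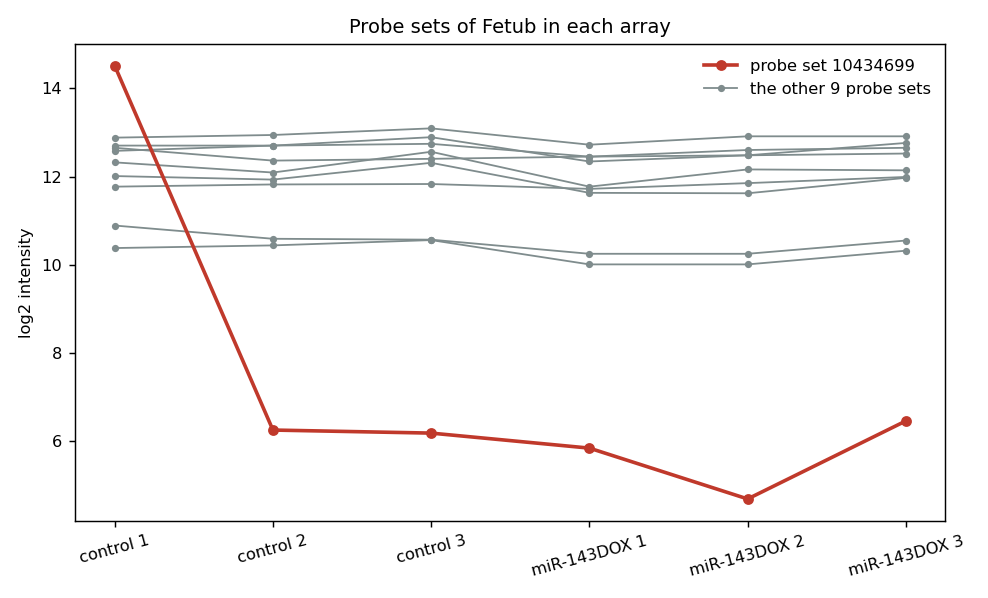
Log2 intensity of the 10 probe sets of Fetub in the 6 arrays, 1 line per probe set. Probe set 10434699 (red) reads 14.51 in control replicate 1 and 4.70 to 6.47 elsewhere, while the other 9 (grey) show no such array.

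Each of the 4 tested genes beside the fetuins had a difference below 0. Hrg, which encodes histidine-rich glycoprotein, measured 11.90 ± 0.05 in control and 11.69 ± 0.06 in miR-143DOX (log2, SD, n = 3 each). Its groups did not overlap, and the difference of -0.22 had an unadjusted p of 0.109 and an adjusted p = 1 in limma (-0.11 with its brightest probe set). Kng2, a kininogen gene, stood at -0.21 (standard error 0.13), and at -0.0021 with its brightest probe set. On the other side of Ahsg, Dnajb11, a co-chaperone of the endoplasmic reticulum, stood at -0.53 (standard error 0.18), with separate groups and an adjusted p = 1, and at -0.32 without control replicate 3. Tbccd1, the gene next to it, stood at -0.19 (standard error 0.16).

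The angiopoietin-like proteins are secreted relatives of the angiopoietins, and ANGPTL4 inhibits lipoprotein lipase, the enzyme that releases fatty acids from triglyceride-rich particles. Angptl4 measured 9.99, 9.20 and 9.68 in control replicates 1 to 3 and 9.63, 9.09 and 8.91 in miR-143DOX replicates 1 to 3. The groups overlapped through control replicate 2, which was lower than miR-143DOX replicate 1. The difference was -0.41 (95% interval -0.89 to 0.07), with an unadjusted p of 0.0898 and an adjusted p = 1 in limma. Of its 9 probe sets 8 lay below 0, between -0.73 and -0.35, and the dimmest one, 10450048, lay at 0.50. The brightest, 10450046, read 11.18, 10.66 and 11.33 in control and 10.58, 10.31 and 10.50 in miR-143DOX arrays, with no overlap. The gene's difference was -0.16 with array weights and -0.62 with either control replicate 2 or miR-143DOX replicate 1 left out. Leaving out control replicate 1 gave -0.23, and leaving out miR-143DOX replicate 3 gave -0.26.

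Angptl6, which encodes a factor reported to oppose obesity and insulin resistance, measured 6.36, 6.54 and 6.19 in control and 6.36, 6.38 and 6.34 in miR-143DOX replicates 1 to 3. Its difference was -0.0026 (95% interval -0.30 to 0.30), with its sign changing under other scalings, and the 3 miR-143DOX arrays lay within 0.04 of each other. Its 5 probe sets disagreed, from -0.45 to 0.39.

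Of 11 tested genes of the lipoprotein lipase axis, 3 lay above 0 and 8 below, with a median of -0.08, and 0 reached an unadjusted p under 0.05. Apoc2, the activator of the lipase, stood at -0.32 (standard error 0.15) with separate groups, but its median probe set gave -0.13 and its brightest 0.0087. Gm6484, the gene of the lipase inhibitor ANGPTL8, stood at 0.59 (standard error 0.37), and leaving out 1 array moved it from 0.24 (control replicate 1 left out) to 1.08 (miR-143DOX replicate 1 left out). It was 0.27 with miR-143DOX replicate 2 left out. Sel1l, which helps lipase leave the endoplasmic reticulum, stood at -0.25 (standard error 0.16), at -0.10 without control replicate 3 and at 0.094 with its brightest probe set.

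Angptl4 is also a textbook target of PPARalpha, and its difference was opposite in sign to most of that list. Of 18 tested genes, PPARalpha and its targets without the hepatokines, 12 lay above 0 with a median of 0.22. At an unadjusted p under 0.05 there were 2 above 0 and 1 below (1.38% and 1.68% of all genes), and 0 passed 5% FDR. The groups of 3 were separate with miR-143DOX higher (3.4% of all genes), and those of 0 with it lower (3.73%). The pantetheinase gene Vnn1 stood at 1.10 (standard error 0.18, limma adjusted p = 0.735), and the fatty acid hydroxylase gene Cyp4a14 at 1.14 (0.30, adjusted p = 1). Ppargc1a, a fasting coactivator, stood at -0.54 (0.22), at -0.18 with its brightest probe set and at -0.28 without control replicate 1.

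FGF21 is a fasting hormone of the liver that acts through FGF receptors with the co-receptor beta-klotho. Fgf21 measured 5.53, 5.32 and 6.04 in control replicates 1 to 3 and 5.95, 5.53 and 5.80 in miR-143DOX replicates 1 to 3. The highest and the lowest array were both controls. The difference was 0.13 (95% interval -0.28 to 0.54), with an unadjusted p of 0.507 and an adjusted p = 1 in limma. It was -0.03 without control replicate 2, 0.33 without control replicate 3 and 0.37 with the median over probe sets.

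Probe sets of Fgf21 split, with 4 of 5 above 0 and 10563349 at -1.03. That probe set read 6.77 in control replicate 3 and 4.47 to 5.6 in the other arrays. The brightest, 10563348, read 7.08, 7.25 and 7.32 in control and 7.77, 7.91 and 7.59 in miR-143DOX arrays, a difference of 0.54 with no overlap. Over the members, 7 of 53 probe sets had groups that did not overlap (13.2%, 3 higher and 4 lower), against 9.04% of all probe sets (4.46% higher and 4.57% lower). Fgf21 was dim, with a mean level above that of 40.1% of genes, and no detection call was used, so its dimmest probe set at 3.49 cannot be told from background.

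**Figure D4:**
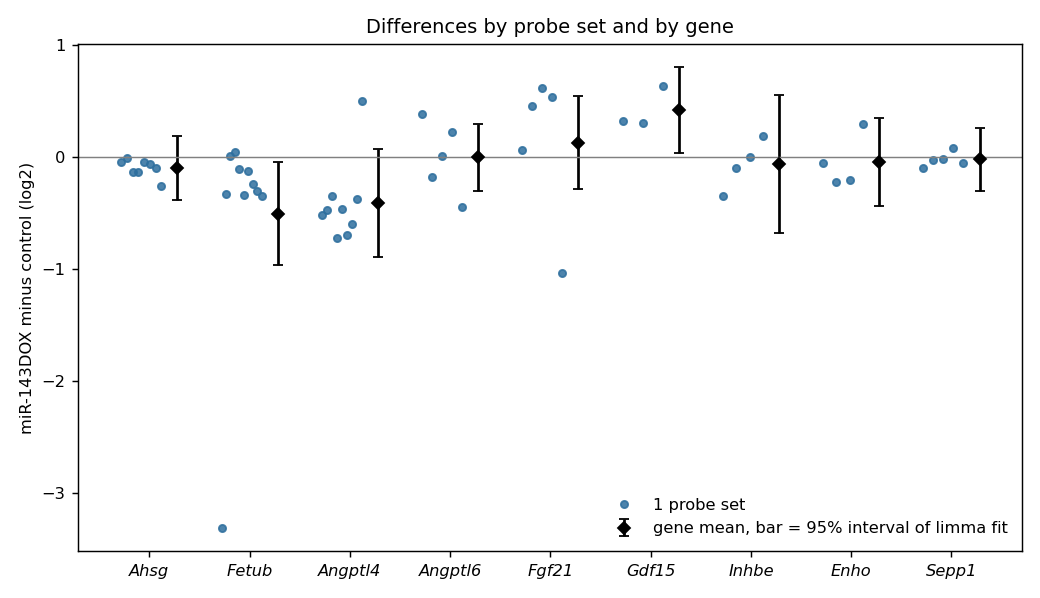
Difference (miR-143DOX minus control, log2) of each of the 53 probe sets (blue) and of each gene mean with the 95% interval of the limma fit (black). Probe sets of Angptl4, Ahsg and Gdf15 lie together on one side of 0 apart from 1 of Angptl4, those of Fgf21 and Angptl6 lie on both, and 1 of Fetub lies at -3.32.

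The stretches just upstream of Fgf21 and Inhbe are shown because these 2 members, both outputs of ATF4, carry the letters of its C/EBP-ATF response element there. RefSeq promoter windows (GRCm38.p6, 250 bases before to 50 after a start) were found for 7 of the 9 genes, not for Angptl4 or Enho. The printed stretches run from 200 bases to 1 base before the start, read 5′ to 3′ on the gene's strand. Capitals mark TTGCATCA, a match to TGATGNAA on the opposite strand, and in Fgf21 also the E-box CACGTG. The first lies at chr7:45615491-45615690 and the second at chr10:127351849-127352048, each on the minus strand.
Fgf21: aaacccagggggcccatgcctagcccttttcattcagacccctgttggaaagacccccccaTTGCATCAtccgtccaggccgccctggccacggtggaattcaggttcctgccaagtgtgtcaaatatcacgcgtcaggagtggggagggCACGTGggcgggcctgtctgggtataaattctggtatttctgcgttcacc
Inhbe: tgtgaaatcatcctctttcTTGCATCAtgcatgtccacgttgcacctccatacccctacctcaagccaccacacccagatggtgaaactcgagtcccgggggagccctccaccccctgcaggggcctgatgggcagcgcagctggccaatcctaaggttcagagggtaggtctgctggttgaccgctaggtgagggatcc

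Both genes hold the same 8 letters, which begin at position -139 from the start of Fgf21 and at -181 from that of Inhbe. On either strand, TGATGNAA was present in 3.97% of the 32851 windows. It matched neither of the 2 windows of Gdf15, which is also named above as an output of ATF4. CACGTG was present in 7.15% of windows, and it also matched a window of Gdf15. The PPAR direct repeat (2 copies of AGGTCA spaced by 1 base) and the cyclic AMP response element TGACGTCA, present in 0.0396% and 1.79% of windows, matched in none of the 7 genes.

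Fgf21 and Inhbe ranked the control animals alike, lowest in replicate 2 and highest in replicate 3, but ranked the miR-143DOX animals differently. Inhbe encodes the beta E subunit of activin, a liver-derived member of the TGF-beta family tied to fat storage, and it measured 8.67, 8.12 and 8.95 in control and 7.81, 8.80 and 8.95 in miR-143DOX replicates 1 to 3. In miR-143DOX replicate 1, Inhbe was at its lowest value of the 6 arrays while Fgf21 was at its second highest. The Inhbe difference was -0.06 (95% interval -0.68 to 0.55), and it was 0.29 when miR-143DOX replicate 1 was left out and -0.29 when control replicate 2 was.

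Gdf15 encodes a stress-induced cytokine that lowers appetite through a brainstem receptor. It measured 7.14, 7.05 and 7.44 in control replicates 1 to 3 and 7.99, 7.47 and 7.44 in miR-143DOX replicates 1 to 3. The miR-143DOX arrays were the higher ones, but control replicate 3 and miR-143DOX replicate 3 coincided to 2 decimals, so the groups just overlapped. The difference was 0.42 (95% interval 0.04 to 0.81), or 1.34-fold, with an unadjusted p of 0.0333 and an adjusted p = 1 in limma. All 3 probe sets lay above 0, between 0.31 and 0.64. Probe set 10579334, the dimmest, had separate groups, at 5.53, 5.02 and 5.72 in control and 6.29, 5.86 and 6.04 in miR-143DOX arrays.

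Leaving out miR-143DOX replicate 1, the animal with its highest value, gave 0.24 for Gdf15, and leaving out control replicate 3 gave 0.54. Most genes of the early response to cell isolation also lay above 0. Of 18 tested, 16 lay above 0, with a median of 0.22. At an unadjusted p under 0.05 were 5 above 0 and 1 below (1.38% and 1.68% of all genes), and 5 had separate groups with miR-143DOX higher (3.4% of all genes). Their mean log2 level was 8.05 to 8.29 in control arrays and 8.33 to 8.50 in miR-143DOX arrays. Among them Gadd45a stood at 0.62 (standard error 0.18) and Gadd45g at 0.92 (0.29), growth arrest genes both, and Hspa1a, a heat shock gene, at -0.92 (0.23). Without control replicate 1 Gadd45g was 0.52, and without control replicate 3 Hspa1a was -0.60. The part of isolation stress in the Gdf15 result was not tested.

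The amino acid and ATF4 stress response list, without the hepatokines, had 13 of 19 tested genes above 0 and a median of 0.10, with 0 at an unadjusted p under 0.05. The groups of 2, Nupr1 and Cebpg, were separate with miR-143DOX higher (3.4% of all genes), and those of 0 with it lower (3.73%). Ddit3, the gene of the stress factor CHOP, stood at -0.33 (standard error 0.16), Nupr1 at 0.26 (0.13) and the ATF4 partner gene Cebpg at 0.25 (0.14). With their brightest probe sets these were 0.059, 0.087 and 0.16, so the direction of Ddit3 turned, and Cebpg was also 0.16 without miR-143DOX replicate 3. Over 10 tested genes of the activin and inhibin system the median was 0.06. The inhibitory Smad7 was the only one of them at an unadjusted p under 0.05, which 3.06% of all genes reached. It measured 7.08 ± 0.14 in control against 7.71 ± 0.38 in miR-143DOX (SD, n = 3 each, difference 0.62, limma adjusted p = 1). Its groups did not overlap. The inhibin alpha gene Inha stood at -0.31 (standard error 0.16), and at -0.47 without miR-143DOX replicate 2. The activin antagonist gene Fstl3 had no settled direction, at 0.17 (0.15) with all its probe sets, -0.10 with their median and 0.72 with the brightest.

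Genes closest to Gdf15 in shape over the 6 arrays, each gene centred on its own mean, were Gas6, Tmem81 and Try4, with root mean square differences of 0.07, 0.09 and 0.09 log2 units. Try4 was dim, at 4.848 to 5.715, near the level of 5.06 under which genes were not tested. Tmem81 read 5.557 to 6.502. For Fetub the closest were Tmem179b (0.08), Igfbp2 (0.09) and Sorbs3 (0.10). The Fetub shape was that of all 10 probe sets, so the reading of 10434699 in control replicate 1 was part of it. Igfbp2 read 10.83, 10.13 and 10.06 in control replicates 1 to 3. Without 10434699 Fetub read 12.02, 11.95 and 12.11 there, and the genes nearest to that shape were not sought. As with Fetub, Tmem179b and Sorbs3 had a probe set far from all the other arrays in 1 array. Without such probe sets their differences went from -0.43 to -0.24 and from -0.41 to -0.35.

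Enho encodes adropin, a small peptide tied to the choice between fat and glucose as fuel. It measured 7.57, 7.20 and 6.90 in control and 7.33, 6.95 and 7.26 in miR-143DOX replicates 1 to 3, with the miR-143DOX arrays inside the control range. The difference was -0.05 (95% interval -0.44 to 0.35). It was 0.29 with the brightest probe set and 0.13 without control replicate 1.

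Sepp1 was the steadiest member. It measured 11.20, 11.09 and 11.03 in control and 11.02, 11.10 and 11.15 in miR-143DOX replicates 1 to 3, with a difference of -0.02 (95% interval -0.30 to 0.26). Its residual SD between animals of a group was 0.08, larger than that of only 4.98% of tested genes, and Ahsg followed at 0.09 (9.33%). At the other end, Inhbe had a residual SD of 0.53, Angptl4 of 0.39 and Fetub of 0.36, at the 98.9, 95.9 and 94.7 percentiles. Fgf21, Enho, Gdf15 and Angptl6 lay between, at 0.30, 0.28, 0.26 and 0.13. The interval of Inhbe accordingly ran from 0.63-fold to 1.47-fold.

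Of 23 tested genes for selenoproteins and their synthesis, 14 lay above 0, with a median of 0.03. H47, the gene of the endoplasmic reticulum selenoprotein S, stood at -0.53 (standard error 0.16) with separate groups, and at -0.19 with its brightest probe set. The plasma glutathione peroxidase gene Gpx3 stood at 0.35 (0.15). These 2 were at an unadjusted p under 0.05 (3.06% of all genes), and the deiodinase gene Dio1, at 0.36 (0.21), was not. Dio1 was 0.13 with control replicate 2 left out and 0.60 with control replicate 1 left out.

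Receptor and co-receptor genes of the hepatokines were tested for 14 of 16, of which 5 lay above 0, with a median of -0.11 and 0 at an unadjusted p under 0.05. The activin receptor gene Acvr1b stood at -0.30 (standard error 0.16), Fgfr1 at -0.27 (0.14) and the insulin receptor gene Insr at -0.34 (0.18), with overlapping groups for each. With the brightest probe set these were -0.056, 0.048 and -0.16, so the direction of Fgfr1 turned. Leaving out miR-143DOX replicate 1 gave -0.17 for Acvr1b and -0.16 for Insr, and leaving out control replicate 3 gave -0.20 for Insr.

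Other factors that the liver secretes mostly lay below 0. Of 22 tested, 4 lay above 0 and 18 below, with a median of -0.15. At an unadjusted p under 0.05 were 4, all of them lower (1.68% of all genes). The groups of 5 were separate with miR-143DOX lower (3.73% of all genes). In limma 0 of 22 passed 5% FDR, with an adjusted p = 1 for each gene named here. Igfbp2, a binding protein of insulin-like growth factors, measured 10.34 ± 0.43 in control against 9.74 ± 0.11 in miR-143DOX (log2, SD, n = 3 each), with separate groups. Its difference of -0.59 was -0.35 without control replicate 1. Lect2, a hepatokine tied to muscle insulin resistance, stood at -0.41 (standard error 0.13), and Manf, a secreted factor of the endoplasmic reticulum stress response, at -0.46 (0.16), each with separate groups. With the brightest probe set these were -0.17 and -0.69.

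**Figure D5:**
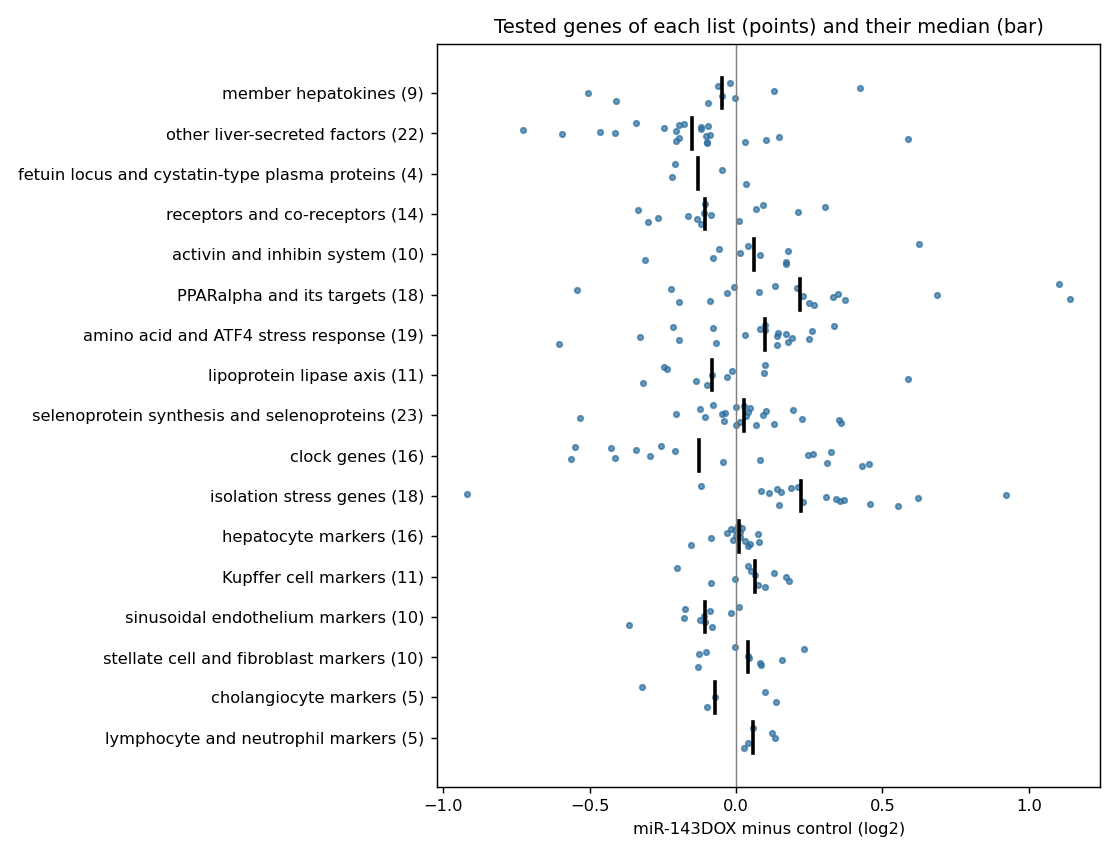
Difference (miR-143DOX minus control, log2) of each tested gene (points) in the hepatokine list and in 16 related pathway and cell type lists, with the median of each list as a bar and the number tested in parentheses. The medians run from -0.15 for other liver-secreted factors to 0.22 for PPARalpha targets and isolation stress genes. The 9 hepatokine genes lie from -0.50 (Fetub with all its probe sets) to 0.42.

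Markers of other liver cells had list medians from -0.11 to 0.06. Sinusoidal endothelium markers had a median of -0.11, with 1 of 10 above 0 and a mean log2 level of 7.64 to 7.77 in control and 7.32 to 7.81 in miR-143DOX arrays. The most negative was Clec4g at -0.37. Kupffer cell markers had a median of 0.06 (8 of 11 above 0), stellate cell and fibroblast markers of 0.04 (6 of 10) and cholangiocyte markers of -0.07 (2 of 5). Lymphocyte and neutrophil markers had a median of 0.06, with 5 of the 14 written genes tested. Their part in the hepatokine values was not tested.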

How the data were processed

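Arrays of 6 mice, 3 per group, were compared, with groups and replicate numbers from the labels. The deposited values are taken as log2 intensities, since they run from 1.60 to 15.2. Partek is named, per the submitters' processing notes, and background correction, normalization and summary are not given in the sources used here. Percentiles of the arrays differed by up to 0.135, over the 0.1 allowed, so values were quantile normalized. Probe sets with 1 gene symbol (212097) were averaged per gene. Genes in the lowest 25% by mean (under log2 5.06) were left out. Tests used limma 3.58.1 under R 4.3.3 (lmFit and eBayes with group alone, two-sided, Benjamini-Hochberg over 15312 genes). Precision is limited by the 6 arrays.

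The hepatokine genes and the 17 gene lists, of which 237 of 245 genes were found, were chosen with earlier results of these data known. Named genes are the members, up to 3 genes per list with the smallest unadjusted p, the neighbours of Ahsg and Fetub, the clock genes Dbp and Arntl, and the 3 genes nearest in shape to each of the 2 members with the smallest p. Lists of cell markers are given mostly as counts. Leaving out probe sets over 3 log2 units from all other arrays was chosen after seeing the data, as an alternative. Sequences are RefSeq's.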

Additional observations from a re-analysis of the deposited data

How the results depend on the processing

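Over 17 alternatives (15 for Fgf21), 0 genes passed 5% FDR in limma in each, and Ahsg, Fetub, Angptl4 and Gdf15 kept their direction throughout. Genes at an unadjusted p under 0.05 numbered 469 of 15312 in limma, and 299 of 10208 after leaving out the lowest 50% of genes. Of 15312 they numbered 1021 with array weights, and from 300 without miR-143DOX replicate 2 to 1128 without miR-143DOX replicate 3. Signs turned for members near 0, and the cause was not tested. Angptl6 was 0.0030 on deposited values, 0.0037 with arrays centred on medians and 0.0067 with the brightest probe set. With that probe set Enho was 0.29 and Sepp1 0.081, and with array weights Inhbe was 0.021. Without a change of sign, Angptl6 was -0.27 with the median over probe sets and Inhbe -0.34 with its brightest probe set. With single arrays left out, Angptl6 ran from -0.090 to 0.086, Fgf21 from -0.026 to 0.33, Inhbe from -0.29 to 0.29, Enho from -0.21 to 0.13 and Sepp1 from -0.060 to 0.027. Fgf21 was too dim to be tested after leaving out the lowest 50% of genes or the dimmest probe sets. With the replicate block, 734 genes were at an unadjusted p under 0.05, Angptl4 stood at -0.41 with an unadjusted p of 0.0236 in limma, and 0 genes passed. Deviations of same-numbered animals correlated at 0.107, 0.0468 and 0.296 across genes, and those of different-numbered animals at -0.257 to 0.152. These values do not settle whether the numbers mark pairs, and the main fit used group alone. The block changed no call at 5% FDR and brought no other member across an unadjusted 0.05. Of the other named genes it brought Gm6484 (0.00241), Insr (0.0339), Ddit3 (0.0311), Inha (0.0416) and Per1 (0.0397) under it in limma. The 95% intervals of 7 of the 9 members include 0.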

Other observations

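Clock genes, which set daily rhythms of metabolic genes in the liver, went both ways. Of 16 tested, 7 lay above 0, with a median of -0.13 and 0 at an unadjusted p under 0.05 in limma. The 3 with the smallest p were Hlf at -0.29 (standard error 0.15), Nr1d1 at 0.33 (0.18) and Per1 at -0.34 (0.22). Hlf had separate groups but stood at 0.023 with its brightest probe set and at -0.11 with its dim probe sets left out. Leaving out single arrays gave -0.18 for Hlf without control replicate 1, 0.13 for Nr1d1 without control replicate 3 and -0.074 for Per1 without control replicate 1. The output gene Dbp stood at -0.56 (0.57) and the core gene Arntl at 0.43 (0.52), and without control replicate 1 both turned, to 0.11 and -0.21. Both also came near 0 without miR-143DOX replicate 1, at 0.021 and -0.051.

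The high readings of control replicate 1 reached beyond Fetub. Such a probe set belonged to 192 tested genes, of which 188 were also tested without it. These genes were chosen for a high reading in a control array, so a lower level in miR-143DOX was favoured in advance by that choice. Of these 188, 72.9% lay lower in miR-143DOX, with a median of -0.11, and 8 were lower and 0 higher at an unadjusted p under 0.05. All 541 probe sets over 3 log2 units above or below every other array, in any array, were then left out. After that, 53.7% of the 188 genes lay lower, with a median of -0.02. At an unadjusted p under 0.05, 3 were lower and 4 higher. Over all genes, 469 were at an unadjusted p under 0.05 before and 472 after, of which 460 were shared, and limma still called 0 at 5% FDR (smallest adjusted p = 0.684). What produced the readings was not tested.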
